A study of Mus musculus with 30 samples.

Results

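Genes that are used as markers of preadipocytes and of adipose progenitors, 10 in all, were followed across 30 RNA-seq libraries of 3T3-L1 cells, a mouse line of preadipocytes that turns into fat cells in culture. The members were given by name: Dlk1, Ly6a, Cd34, Thy1, Dpp4, Gsn, Pi16, Mfap5, Wnt10b and Sox9, which are 10 of the 54232 genes in the deposited count table and 10 of the 20139 genes that were tested. All libraries came from cells given adipogenic medium for 5 days, so no group was of undifferentiated cells. There were 6 groups of 5 libraries: Control, with none of the agents; pNaKtide at 0.7 µM; IS at 100 µM; IS + pNaKtide; oxLDL at 50 µg/mL; and oxLDL + pNaKtide, at the same doses. The labels give 5 days of treatment, whereas the study's methods describe daily additions over a shorter time to cells that had already been through the adipogenic medium, and the sources used here do not settle which holds for these libraries. IS is indoxyl sulphate, a toxin that builds up in kidney failure, oxLDL is oxidized low-density lipoprotein, and pNaKtide is a peptide that blocks the signaling of the Na,K-ATPase through Src. The labels name the cells as a single line but do not say whether the 5 libraries of a group came from separate cultures, so p-values measure the spread between these libraries, which may be technical.

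Adipocytes form from committed preadipocytes, which in turn come from fibroblast-like progenitors of the connective tissue. The members mark different steps of that path. Pi16 and Dpp4 mark early interstitial progenitors, where Mfap5, a protein of elastic microfibrils, is also high. Cd34, Ly6a (also called Sca-1) and Thy1 (CD90) are surface proteins used to sort adipose stem cells. Dlk1 (Pref-1) is a transmembrane protein whose shed form holds back adipogenesis, Wnt10b is a secreted ligand that does so through beta-catenin, and Sox9 is a transcription factor of cartilage and of preadipocytes that acts downstream of Dlk1. Gsn, gelsolin, cuts and caps actin filaments and is a common fibroblast gene. In bulk RNA, a lower level can come from fewer cells that make the transcript or from less RNA per cell, and these cannot be told apart here.

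RefSeq promoter windows, each of 250 bases before and 50 after a start site in GRCm38.p6, were held for 6 of the 10 members: Dlk1, Cd34, Dpp4, Gsn (3 start sites), Pi16 and Wnt10b. Shown here are the 250 bases before the start site of Dlk1, which had the largest change of the well measured members, of the first Gsn start site, which was called beside Dlk1 in 2 comparisons, and of Dpp4, which had almost no reads. Capitals mark matches, on either strand, to any of 6 short motifs: TATAAA (the TATA box), CCAAT (the CCAAT box), GGGCGG (the core of a GC box), CANNTG (the E-box), CTTTGA (a core of TCF/LEF sites) and ATTGTT (a core of Sox sites).
Dlk1, chr12:109452573-109452822, plus strand: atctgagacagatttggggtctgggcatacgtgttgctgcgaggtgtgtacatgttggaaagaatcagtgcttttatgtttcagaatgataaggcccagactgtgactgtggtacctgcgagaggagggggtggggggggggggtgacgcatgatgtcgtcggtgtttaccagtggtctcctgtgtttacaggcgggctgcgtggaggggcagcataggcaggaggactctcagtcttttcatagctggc
Gsn, chr2:35256109-35256358, plus strand: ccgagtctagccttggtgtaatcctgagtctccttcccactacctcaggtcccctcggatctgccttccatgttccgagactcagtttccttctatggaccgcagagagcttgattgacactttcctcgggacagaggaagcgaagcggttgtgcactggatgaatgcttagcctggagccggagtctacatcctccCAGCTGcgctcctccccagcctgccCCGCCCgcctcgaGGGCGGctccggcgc
Dpp4, chr2:62412232-62412481, minus strand: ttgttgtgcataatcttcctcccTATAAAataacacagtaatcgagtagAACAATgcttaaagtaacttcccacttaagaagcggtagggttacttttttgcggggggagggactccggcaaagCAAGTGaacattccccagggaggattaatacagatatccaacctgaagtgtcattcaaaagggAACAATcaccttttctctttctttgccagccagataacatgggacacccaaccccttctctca
The Dlk1 window held none of the 6 motifs, and neither did that of Cd34. The first Gsn window held 3 matches to GGGCGG, 1 of them after the start site, and 1 to CANNTG. The Dpp4 window held 1 match to TATAAA, 2 to ATTGTT and 1 to CANNTG. Of 32851 RefSeq promoter windows of this length, 13.6% held TATAAA, 37.4% CCAAT, 35.7% GGGCGG, 72.3% CANNTG, 16.0% CTTTGA and 10.7% ATTGTT. A match is a run of letters and not a bound site, and the absence of one says only that these letters are not in this window. No 2 of the matches printed above overlapped.

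The libraries held between 6945498 and 15159877 counted reads, with a median of 11524210. The cells were checked against markers first. Adipocyte genes were abundant in every group: the lipid droplet protein gene Cidec averaged 2802 FPKM (reads scaled by transcript length and by library depth), the adipokine gene Adipoq 729 FPKM and the fatty acid carrier gene Fabp4 557 FPKM. Macrophage markers summed to between 4.59 and 8.69 CPM (counts scaled to a common library depth) and 2 of the 8 were at 0 in every library, while the 7 endothelial markers summed to at most 0.853 CPM. Libraries stood apart from their groups on the first principal component of all genes, which held 64.4% of the variance over 12580 genes. Control replicate 1 had a score of −25.8 while those of the other Control libraries were positive, and IS replicate 4 had 28.2 while the rest of IS was negative. These 2 are meant below by the libraries that stood apart, and calls that changed without both are given beside the members or with the counts of members. They were picked by their scores in these same data. Dlk1, Gsn, Ly6a and Thy1 follow that component (r of 0.93, 0.94, 0.79 and 0.77), and Pi16 and Sox9 less so (0.44 and −0.41). Leaving both out therefore widens differences from Control in such genes, and p-values without them tend to be too small and are no separate evidence. pNaKtide replicate 3 (−5.36, others 15.9 to 36.6) and oxLDL + pNaKtide replicate 4 (67.5, others 14.5 to 33.2), the library with the fewest reads, also lay away from their groups and were left out only one at a time. Changes across all genes also followed the GC content of the transcript: in oxLDL against Control the lowest of 4 equal bins of genes by GC content had a median log2 fold change of 0.42 and the highest bin of −0.30, and in oxLDL + pNaKtide against oxLDL these medians were −0.57 and 0.34. Gsn (57.1% GC), Thy1 (55.8%) and Pi16 (54.9%) lie in the highest bin, Dlk1 (53.6%) just below it, and Cd34 (42.8%) and Dpp4 (42.2%) in the lowest. Changes below are therefore also given from a fit in which every library's trend over transcript length and GC content was taken out, where that changed the call. The part of this trend in the results was not tested.

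Per unit of length, the members covered a range from abundant to nearly absent. Gsn was highest, at a mean of 465 FPKM ± 75.3 (SD, n = 30), and stood at rank 190 of the 20139 tested genes. Dlk1 followed at 23.0 FPKM ± 8.84, Thy1 at 21.2 ± 3.60, Ly6a at 15.2 ± 4.32 and Sox9 at 4.62 ± 0.833. Dlk1 and Thy1 differ by less than the spread between libraries. Pi16 reached only 0.622 FPKM ± 0.149 and Mfap5 0.202 ± 0.0864. The surface marker Cd34 (0.0301 FPKM), the ligand Wnt10b (0.0161 FPKM) and the progenitor peptidase Dpp4 (0.00955 FPKM) were at or near the limit of detection. Thus 5 of the 10 had more than 14 reads in every library, and all 10 passed the filter of more than 14 reads over the 30 libraries together.

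**Figure D1:**
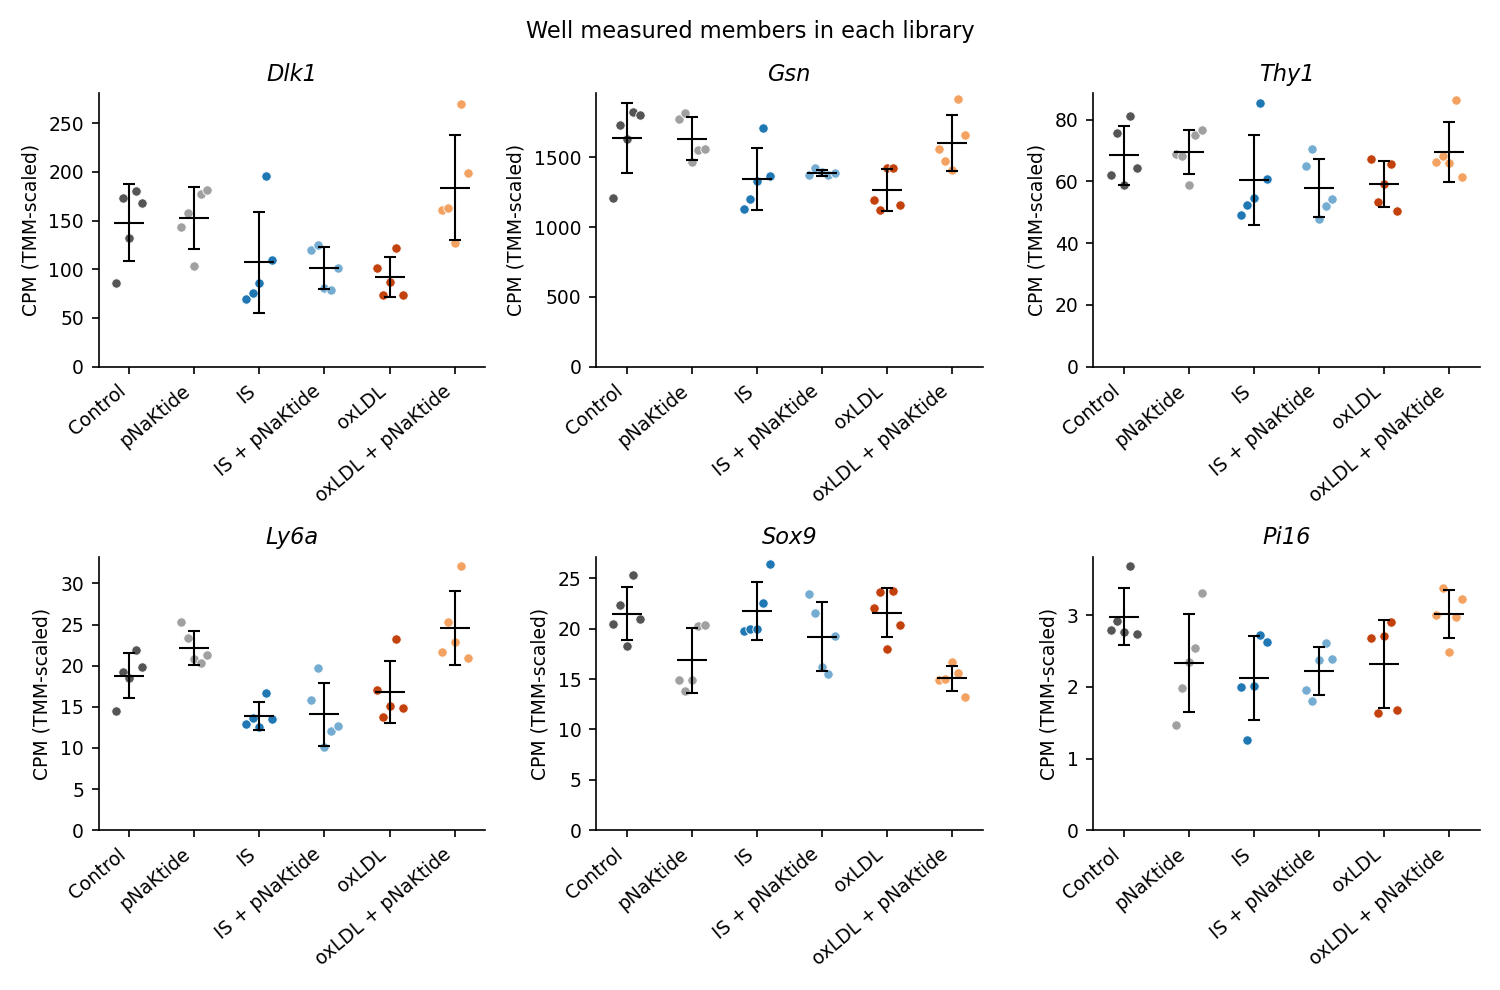
TMM-scaled CPM (vertical axes, from 0) of 6 members in each of the 30 libraries, by group. Points are libraries, the long bar is the group mean and the error bars are 1 SD (n = 5). Dlk1 in oxLDL + pNaKtide (127 to 269.7 CPM) lies wholly above oxLDL (73.6 to 122 CPM), and Sox9 in oxLDL + pNaKtide (13.2 to 16.7 CPM) wholly below it (18.0 to 23.8 CPM).

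Dlk1 (ENSMUSG00000040856, chr12:109452823-109463336, plus strand, GRCm38) was lower with oxLDL and higher when pNaKtide was added to oxLDL. In Control its level was 85.6, 173, 132, 180.1 and 168 CPM in replicates 1 to 5. In oxLDL it was 101, 73.6, 87.2, 122 and 74.1 CPM, and in oxLDL + pNaKtide it was 161, 163, 127, 269.7 and 199 CPM. Every oxLDL + pNaKtide library was above every oxLDL library, while the lowest Control library, the one that stood apart, lay within the oxLDL range. The group means were 148 ± 39.4 CPM (SD, n = 5) in Control, 91.7 ± 20.5 in oxLDL and 184 ± 54.2 in oxLDL + pNaKtide. The log2 fold change of oxLDL against Control was −0.69 ± 0.24 (SE; edgeR quasi-likelihood test, adjusted p = 0.0369). That of oxLDL + pNaKtide against oxLDL was 1.00 ± 0.25 (edgeR adjusted p = 0.00157), a 2.00-fold higher level. Without Control replicate 1 and IS replicate 4 the fall with oxLDL was −0.83 (edgeR adjusted p = 0.00184). With the length and GC trend out it was −0.54 and was no longer called (edgeR adjusted p = 0.123), and it was likewise lost without Control replicate 4 (adjusted p = 0.105). The rise with pNaKtide was 0.88 (adjusted p = 0.00521) with the trend out and was called in all 10 fits that left out 1 library, among them the one without oxLDL + pNaKtide replicate 4, whose 269.7 CPM was the highest value of all libraries.

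No other group comparison called Dlk1. In IS it was 69.4, 75.9, 85.8, 196 and 109.6 CPM in replicates 1 to 5, and in IS + pNaKtide 119.6, 125, 80.9, 78.4 and 101 CPM. The 196 CPM belongs to IS replicate 4, the library that stood apart, and is above every Control value. The log2 fold change of IS against Control was −0.46 ± 0.24 (edgeR adjusted p = 0.229) and became −0.94 (adjusted p = 0.00136) without the 2 libraries that stood apart. Those 2 held the highest IS value and the lowest Control value of Dlk1. Adding pNaKtide to IS gave −0.08, with an interval of 2 SE from −0.57 to 0.40. pNaKtide alone left Dlk1 at 143, 157, 103, 177 and 181 CPM, a log2 fold change of 0.05 against Control with an interval from −0.44 to 0.53. From highest to lowest mean the order was oxLDL + pNaKtide, pNaKtide, Control, IS, IS + pNaKtide and oxLDL, and each neighbouring pair in that order overlapped and differed by less than 1 SD.

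Gsn (ENSMUSG00000026879, chr2:35256380-35307892, plus strand) moved in the same directions as Dlk1 by a smaller amount. Its level was 1213, 1734, 1632, 1823 and 1807 CPM in Control, 1197, 1122, 1427, 1425 and 1160.1 CPM in oxLDL, and 1560.4, 1473, 1412, 1918 and 1659 CPM in oxLDL + pNaKtide. Only Control replicate 1 fell into the oxLDL range, and only oxLDL + pNaKtide replicate 3 did so of its group. The log2 fold change was −0.37 ± 0.12 with oxLDL (edgeR adjusted p = 0.0188) and 0.34 ± 0.12 when pNaKtide was added to it (adjusted p = 0.0168). With the length and GC trend out these became −0.08 (adjusted p = 0.413) and −0.02, so that neither call was left and the second turned its sign. In IS the level was 1129.6, 1202, 1329, 1708 and 1370.0 CPM, a log2 fold change of −0.28 ± 0.12 against Control (adjusted p = 0.133), and in IS + pNaKtide it was between 1372 and 1425 CPM. The IS value was −0.48 (adjusted p = 0.000351) without the 2 libraries that stood apart. A further gene model, Gm43128, overlaps Gsn on the same strand with 790 reads in all, against 502083 for Gsn.

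The surface markers Thy1 and Ly6a are both carried on a lipid anchor at the cell surface, and both were well measured. Thy1 (ENSMUSG00000032011, chr9:44043384-44048579, plus strand), an immunoglobulin-family glycoprotein of stromal cells, passed the test in none of the 8 group comparisons. Its group means lay between 57.9 ± 9.48 CPM in IS + pNaKtide and 69.6 ± 9.72 CPM in oxLDL + pNaKtide, with log2 fold changes of −0.21 ± 0.13 for oxLDL against Control (adjusted p = 0.244) and 0.23 ± 0.13 for oxLDL + pNaKtide against oxLDL (adjusted p = 0.165). Both turned their sign with the length and GC trend out, to 0.09 (adjusted p = 0.578) and −0.17 (adjusted p = 0.173). Without the 2 libraries that stood apart, Thy1 was called lower with oxLDL (−0.24, edgeR adjusted p = 0.0900) and with IS (−0.37, adjusted p = 0.0152), lower in IS + pNaKtide than in Control (−0.27, adjusted p = 0.0753), and higher when pNaKtide was added to oxLDL (0.23, adjusted p = 0.0868).

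Ly6a (ENSMUSG00000075602, chr15:74994877-74998031, minus strand) was the only member called in IS against Control by edgeR with all libraries. Its level was 14.4, 19.2, 18.5, 21.9 and 19.9 CPM in Control and 12.9, 13.7, 12.5, 16.7 and 13.5 CPM in IS. All IS libraries except replicate 4 were below the lowest Control library. The log2 fold change was −0.44 ± 0.15 (edgeR adjusted p = 0.0950), and it passed the threshold in 2 of the 10 fits that left out 1 library, with a largest adjusted p of 0.256 without Control replicate 4. Without both libraries that stood apart it was −0.59 (adjusted p = 0.00282). In oxLDL it was 17.0, 13.8, 15.1, 23.3 and 14.8 CPM, and in oxLDL + pNaKtide 21.7, 25.3, 22.8, 32.1 and 20.9 CPM. Replicate 4 of oxLDL overlaps the group with pNaKtide, and the other 4 lie below it. The log2 fold change between them was 0.54 ± 0.15 (edgeR adjusted p = 0.00456), and 0.30 (adjusted p = 0.0531) with the length and GC trend out. Against Control, oxLDL alone gave −0.16 (adjusted p = 0.471), with an interval from −0.46 to 0.15. Ly6a belongs to a cluster of closely alike Ly6 genes, so that reads may have been split among them by the authors' counting.

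Sox9 (ENSMUSG00000000567, chr11:112782224-112787760, plus strand) went the other way. It did not pass the test with oxLDL (log2 fold change 0.01, interval −0.24 to 0.26) or with IS (0.02, interval −0.23 to 0.26), and it was lower where pNaKtide was added to oxLDL. Its level was 20.5, 22.4, 18.2, 25.3 and 21.0 CPM in Control, 22.1, 23.7, 18.0, 23.8 and 20.3 CPM in oxLDL, and 14.9, 15.0, 16.7, 15.6 and 13.2 CPM in oxLDL + pNaKtide. The last group lies below both others with no overlap. The log2 fold change was −0.52 ± 0.13 against oxLDL (edgeR adjusted p = 0.00141) and −0.51 ± 0.13 against Control (adjusted p = 0.0242). Both calls held in the 10 fits that left out 1 library each, and with the length and GC trend out (−0.45, adjusted p = 0.00364, and −0.44, adjusted p = 0.0208). pNaKtide alone gave 14.9, 13.8, 14.9, 20.3 and 20.4 CPM, a log2 fold change of −0.35 ± 0.13 against Control with an unadjusted p of 0.00978 in edgeR and an adjusted p of 0.685. Adding pNaKtide to IS gave −0.18, with an interval from −0.43 to 0.06.

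Pi16 (ENSMUSG00000024011, chr17:29317680-29330593, plus strand), a secreted peptidase inhibitor of early progenitors, had 13 to 43 reads per library. Its level was 2.79, 2.92, 2.77, 3.69 and 2.74 CPM in Control and 2.00, 1.26, 2.01, 2.72 and 2.62 CPM in IS. All IS libraries were below all Control libraries, as were those of IS + pNaKtide (1.80 to 2.61 CPM), but neither difference passed the test (log2 fold changes −0.50, edgeR adjusted p = 0.124, and −0.41, adjusted p = 0.244). Of all tested genes, 0.958% were lower with no overlap in IS against Control and 1.64% in IS + pNaKtide against Control. An antisense gene model overlaps Pi16, and reads of the pair cannot be told apart without the strand setting of the counting.

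**Figure D2:**
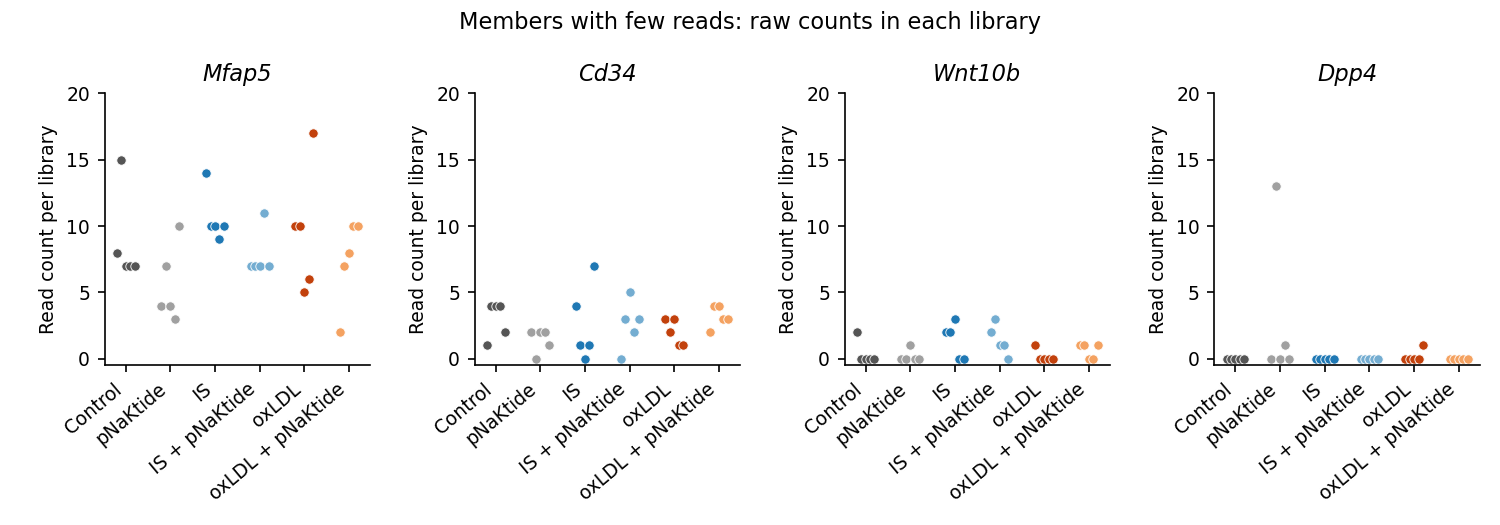
Raw read counts per library (vertical axes) of the 4 members with the fewest reads, by group. Each point is 1 library, and no mean is drawn. Dpp4 is at 0 in 27 of the 30 libraries and has 13 of its 15 reads in pNaKtide replicate 2.

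The remaining members had too few reads for a change of moderate size to be detectable. Mfap5 (ENSMUSG00000030116, chr6:122505845-122529290) had 2 to 17 reads per library, and its largest log2 fold change among the group comparisons was −0.37 in IS + pNaKtide against Control (edgeR adjusted p = 0.568). Cd34 (ENSMUSG00000016494, chr1:194938819-194961279) had 74 reads in all and 0 to 7 per library. Wnt10b (ENSMUSG00000022996, chr15:98770712-98778150) had 21 reads, with 17 libraries at 0. Its reads in IS were 2, 2, 3, 0 and 0, and in Control 2, 0, 0, 0 and 0. Dpp4 (ENSMUSG00000035000, chr2:62330073-62412231) had 15 reads, of which 13 were in pNaKtide replicate 2, 1 in pNaKtide replicate 4 and 1 in oxLDL replicate 5. An antisense gene, Gm16897, overlaps Cd34 with 4 reads in all, and Gm13561 overlaps Dpp4 with 0. In a library with 0 reads, the 3 reads that such a count allows are 0.180 to 0.497 CPM by library. None of these 4 was called in any comparison by edgeR with all libraries and no trend correction. Cd34, with the length and GC trend out, was called higher in oxLDL + pNaKtide than in oxLDL (1.45, edgeR adjusted p = 0.0742, against 1.08 and 0.162 without the correction), on group means of 0.362 ± 0.103 and 0.175 ± 0.122 CPM, which is a few reads per library.

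**Figure D3:**
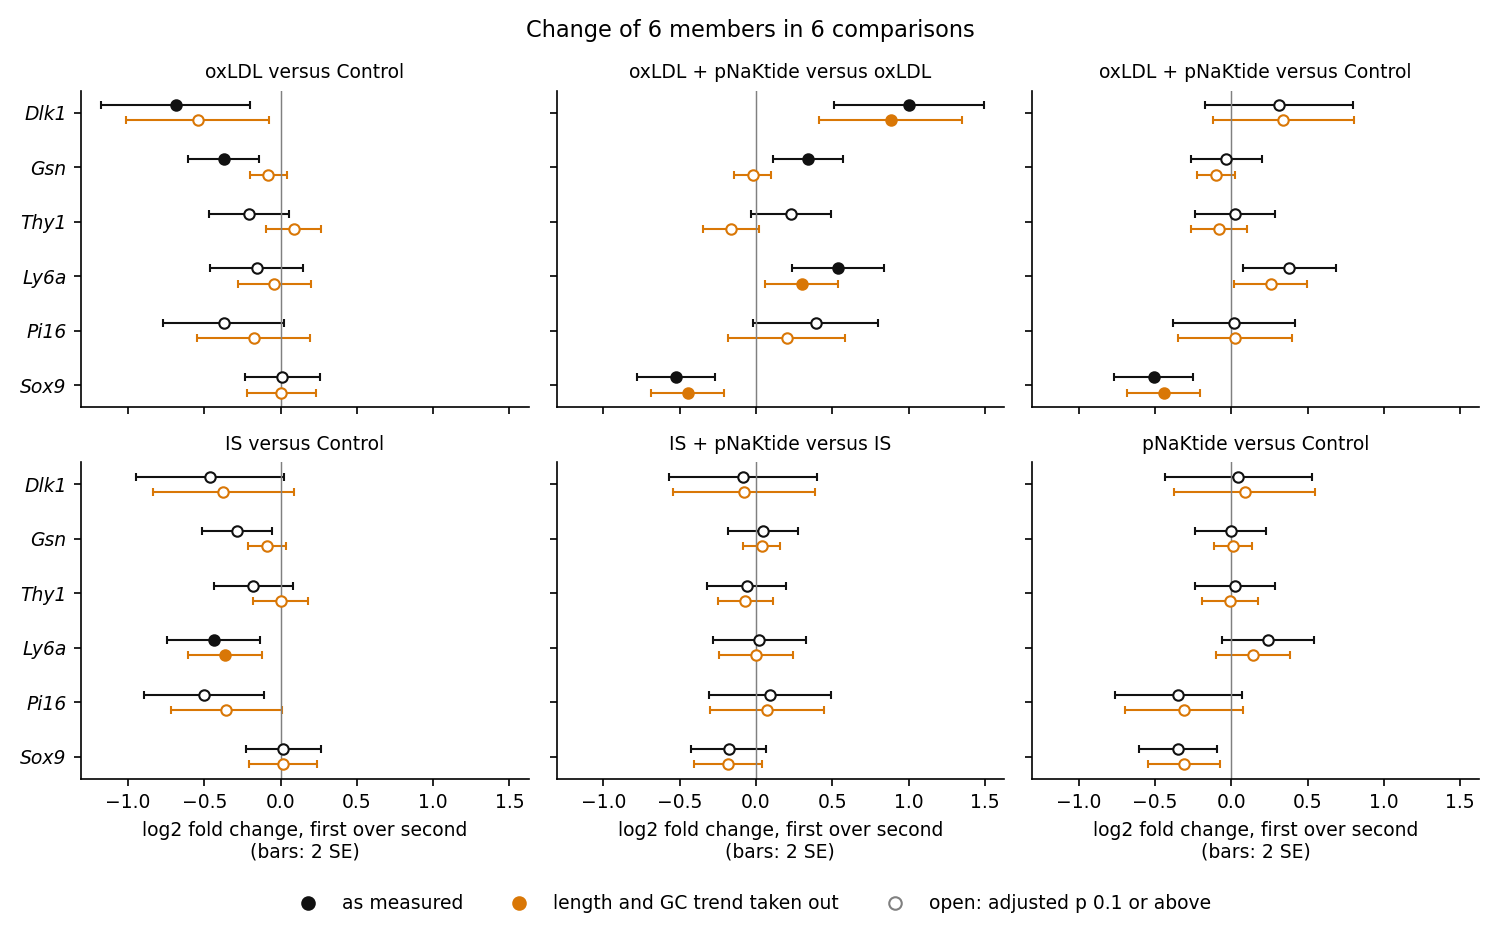
Log2 fold changes (horizontal axes) of 6 members in 6 comparisons, with bars of 2 SE. Black points are the changes as measured, orange points those with the length and GC trend taken out, and filled points have an adjusted p below 0.1. Gsn in oxLDL + pNaKtide against oxLDL moves from 0.34 to −0.02. There Dlk1 goes from 1.00 to 0.88 and Sox9 from −0.52 to −0.45, and both stay called.

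Counted over the members, oxLDL against Control called 2 of 10, both lower (Dlk1 and Gsn), where 36.0% of all tested genes were called and 18.0% were called lower. IS against Control called 1 (Ly6a, lower), against 7.94% of all genes, 3.49% lower. In oxLDL + pNaKtide against oxLDL 4 were called, Dlk1, Ly6a and Gsn higher and Sox9 lower, against 48.3% of all genes (22.1% higher and 26.1% lower). Of the 10 members, 1 had groups that did not overlap upward (Dlk1), against 13.6% of all genes, and 1 downward (Sox9), against 14.8%. The shares of members called in these 3 comparisons are near or below those of all genes. In oxLDL + pNaKtide against Control 1 was called (Sox9, lower), against 5.20% of all genes and 3.16% lower, and its groups did not overlap, as for 2.20% of all genes downward. With pNaKtide alone edgeR called 0 of the 10 members, DESeq2 0 of the 3 to which it gave an adjusted p and limma-trend 0 of the 6 that it tested, those with a mean FPKM of 0.5 or more, and 2 had an unadjusted p below 0.05, Sox9 and Dpp4. In that comparison 0.00497% of all genes were called. Adding pNaKtide to IS called 0 in edgeR, 0 of 6 in DESeq2 and 0 of 6 in limma-trend, with 0 at an unadjusted p below 0.05, and 0.00% of all genes. In IS + pNaKtide against Control edgeR called 0, limma-trend 0 of 6 and DESeq2 1 of 5 (Ly6a), with 4 at an unadjusted p below 0.05 and 0.358% of all genes called. IS against oxLDL called 0 in edgeR, 0 of 6 in DESeq2 and 0 of 6 in limma-trend, with 0 at an unadjusted p below 0.05 and 0.0149% of all genes called, and for Dlk1 the difference was 0.22 with an interval from −0.26 to 0.71. The comparisons with Control share its 5 libraries, and those with oxLDL share the oxLDL libraries, so the opposite signs of oxLDL against Control and of oxLDL + pNaKtide against oxLDL are not independent. Calls in the comparisons of IS with Control turned on single libraries. Calls over all genes moved with them. Without Control replicate 1 alone 5 members were called in IS against Control, beside 33.2% of all genes, without IS replicate 4 alone 5, beside 34.5%, and without any 1 of the other 8 libraries 0, beside at most 1.51%. Without both, 6 were called, where 45.4% of all tested genes were called: Dlk1, Gsn, Thy1, Ly6a and Pi16 lower, and Wnt10b, which then had no read in Control. In IS + pNaKtide against Control the count was 4 without Control replicate 1, beside 26.7% of all genes, and 0 without any other library, beside at most 0.104%. Without both libraries that stood apart it was 5, beside 32.4% of all genes: Dlk1 (−0.69, edgeR adjusted p = 0.0162), Gsn (−0.33, adjusted p = 0.0110), Ly6a (−0.50, adjusted p = 0.0145) and Thy1 lower, and Wnt10b (adjusted p = 0.0492), which then had no read in Control. In oxLDL against Control the count was 3 without oxLDL replicate 4, beside 37.6% of all genes, and 1 without Control replicate 4, beside 24.7%. The median log2 fold change of the members was −0.29 with oxLDL and 0.37 when pNaKtide was added to it, beside 0.04 and −0.09 for all tested genes. Genes of the highest GC bin, in whose range Gsn, Thy1 and Pi16 lie, had medians of −0.30 and 0.34. Those of the lowest bin, in whose range Cd34 and Dpp4 lie, had 0.42 and −0.57. The part of GC content in the members' medians was not tested.

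Whether pNaKtide acted differently by condition was tested as a difference between changes. Its effect on Dlk1 was larger under oxLDL than in untreated cells by 0.95 ± 0.34 on the log2 scale (edgeR adjusted p = 0.0586), where 24.6% of all genes were called. For Pi16 the change with pNaKtide was −0.35 in untreated cells and 0.39 under oxLDL, of which neither was called (edgeR adjusted p = 0.874 and 0.128), and the difference between them was 0.74 ± 0.29 (adjusted p = 0.0778). The change with pNaKtide was higher under oxLDL than under IS by 1.08 ± 0.34 for Dlk1 (edgeR adjusted p = 0.0286) and by 0.52 ± 0.22 for Ly6a (adjusted p = 0.0828), where 29.3% of all genes were called. With the length and GC trend out, only the difference of Dlk1 between oxLDL and IS stayed past the threshold (0.96, adjusted p = 0.0575). Dlk1 kept the first of these calls in 14 of the 20 fits that left out 1 library. It lost it without Control replicate 2 or 4, oxLDL replicate 2 or 5, pNaKtide replicate 3 or oxLDL + pNaKtide replicate 4, with a largest adjusted p of 0.146, and it lost the second without IS replicate 4 (adjusted p = 0.103). Those of Pi16 and Ly6a each held in 11 of the 20 fits that left out 1 library. Without both libraries that stood apart, Gsn (0.44, edgeR adjusted p = 0.00860) and Cd34 (2.14, adjusted p = 0.0682) were also past the threshold for oxLDL against untreated cells, beside 8049 of the 20139 genes, and Ly6a no longer was for oxLDL against IS (adjusted p = 0.130). For the effect of pNaKtide under IS against that in untreated cells, edgeR and DESeq2 called 0 members and limma-trend 0 of 6, none had an unadjusted p below 0.05, and 0.00% of all genes were called.

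**Figure D4:**
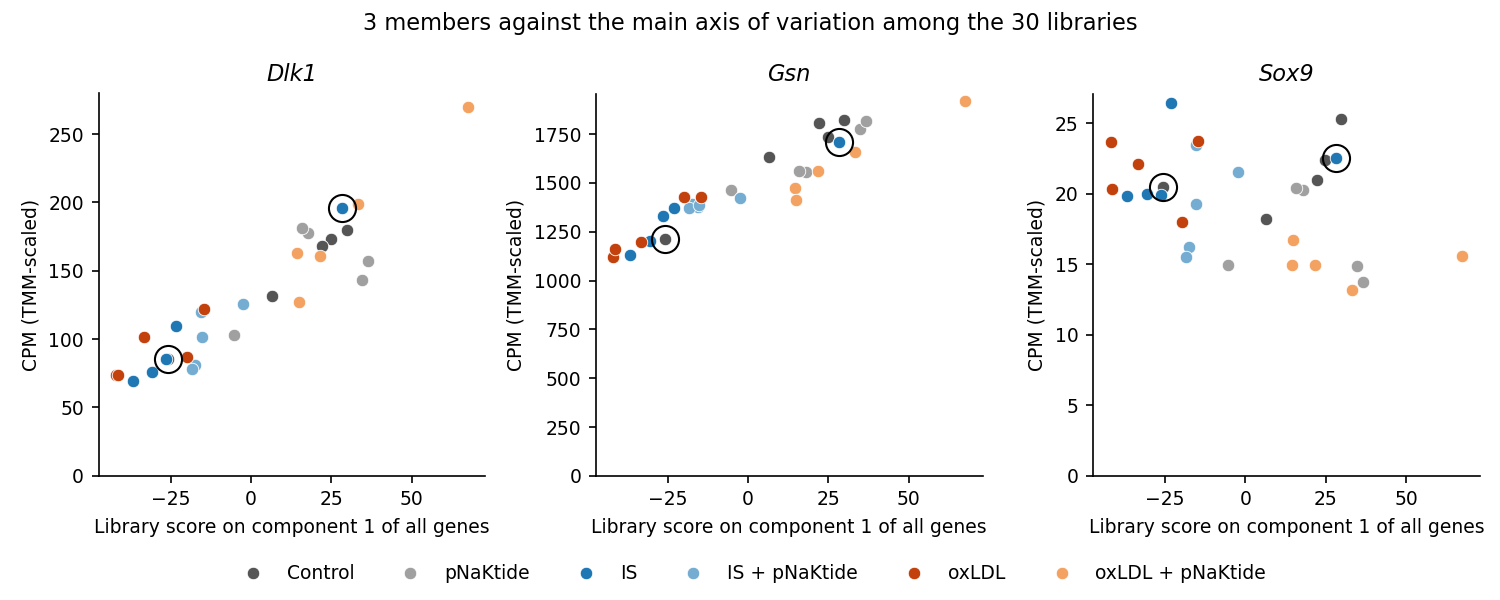
TMM-scaled CPM of Dlk1, Gsn and Sox9 (vertical axes, from 0) against the score of each library on the first principal component of all genes (horizontal axes, no unit). Points are libraries coloured by group, and circles mark Control replicate 1 and IS replicate 4, which lie among libraries of other groups. Dlk1 and Gsn rise along the component, which the members themselves are part of, and Sox9 does not.

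The members did not vary as 1 set. Over the 30 libraries, log2 CPM of Dlk1 had a Pearson correlation of 0.87 with that of both Thy1 and Gsn and 0.80 with Ly6a, but −0.17 with Sox9. With the group means taken out, Dlk1 and Sox9 correlated at 0.46, so that libraries of 1 group that were high in Dlk1 tended to be high in Sox9 while the groups themselves did not follow that order. These are descriptions over libraries that share their groups, their depth scaling and the GC trend. The genes closest to Dlk1 in pattern were Serpinf1 (r = 0.976), Nt5dc2 (r = 0.972) and Palm (r = 0.972), and 694 of 12574 genes reached an r of 0.9 with it. For Gsn they were Gnai2, Tuba1c and Sdf4 (r of 0.980, 0.980 and 0.976), and for Thy1 Cst3, Rcn3 and Serpinf1 (0.943, 0.931 and 0.920). Closest to Ly6a were Manf, S100a4 and Igfbp4 (0.879, 0.878 and 0.877), to Sox9 Vasn, Gpsm1 and Thbs2 (0.916, 0.880 and 0.863), and to Pi16 Abcc10, Gpr107 and Ube2o (0.732, 0.724 and 0.709). With the group means taken out, the closest gene was Nucb1 for Dlk1 (0.979), Phgdh for Gsn (0.983), Tpm3 for Thy1 (0.946), Kdelr3 for Ly6a (0.867), Chst2 for Sox9 (0.875) and Ehd3 for Pi16 (0.716).

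**Figure D5:**
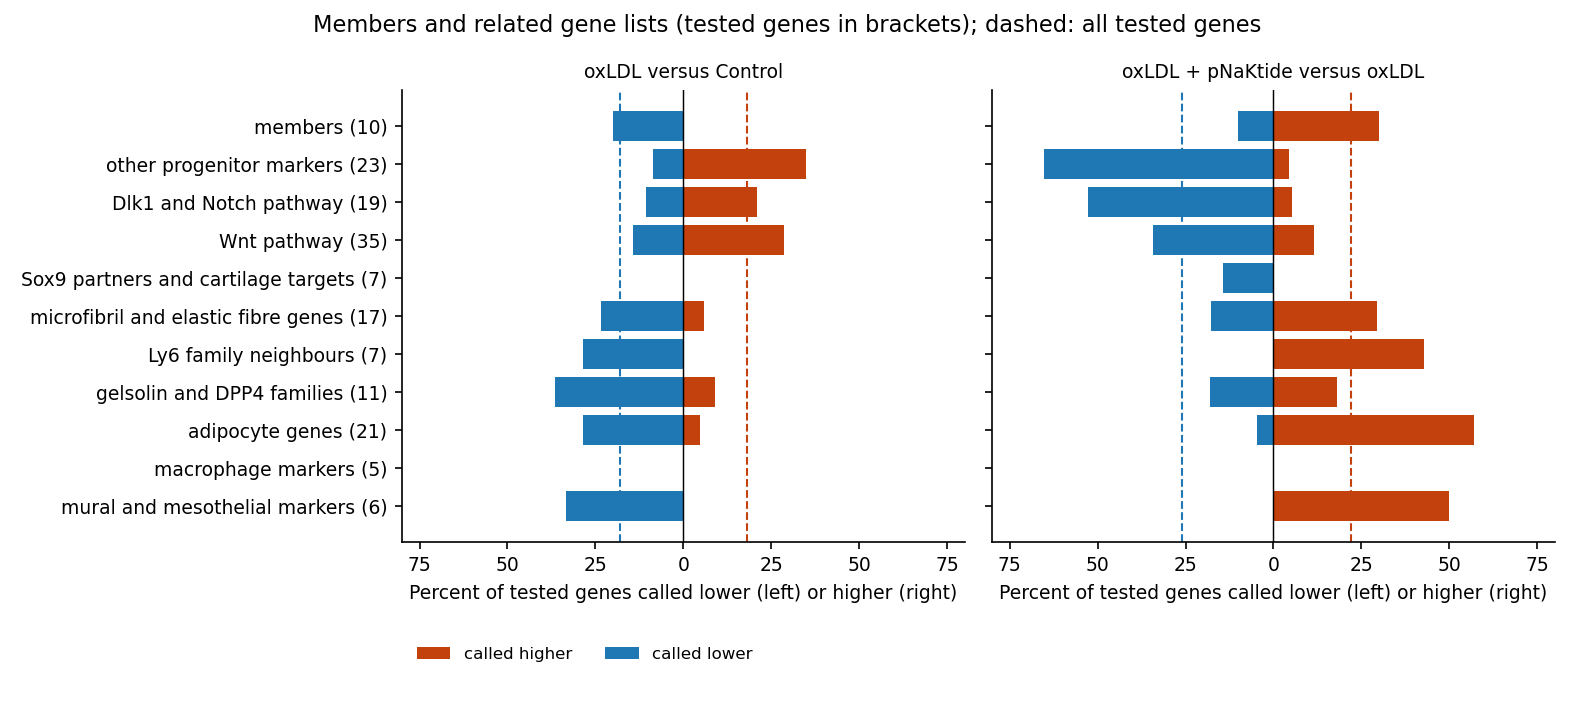
Share of the tested genes of each list called higher (right, red) or lower (left, blue), in percent, in oxLDL against Control and in oxLDL + pNaKtide against oxLDL. Numbers in brackets are the tested genes, and dashed lines are the shares of all tested genes. Of 23 other progenitor markers 15 were lower in the second comparison, and of 21 adipocyte genes 12 were higher.

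Of 28 other progenitor and preadipocyte markers 23 were tested. With oxLDL 8 were called higher and 2 lower, where 18.1% of all tested genes were called higher and 18.0% lower. When pNaKtide was added to oxLDL 1 was higher and 15 lower, where 22.1% of all genes were higher and 26.1% lower. These shares of all genes stand beside the counts of every list that follows. The homeobox gene Prrx1 rose from 76.2 ± 19.2 CPM in Control to 111 ± 13.6 CPM in oxLDL (log2 fold change 0.55 ± 0.14, edgeR adjusted p = 0.0104), and the secreted guidance gene Sema3c fell from 59.6 ± 5.58 CPM in oxLDL to 32.5 ± 6.62 CPM in oxLDL + pNaKtide (−0.87 ± 0.11, adjusted p = 6.27e-06). The collagen gene Col15a1 moved like Dlk1, from 34.6 to 25.7 CPM with oxLDL and up to 36.2 CPM with pNaKtide (−0.42, adjusted p = 0.0178, and 0.49, adjusted p = 0.00279). With the length and GC trend out, 2 of the 23 were higher and 1 lower with oxLDL, beside 10.3% and 9.77% of all genes, and 1 was higher and 11 lower when pNaKtide was added, beside 15.4% and 22.0%. The oxLDL calls of Prrx1 (0.18, edgeR adjusted p = 0.141) and Col15a1 (−0.24, adjusted p = 0.135) were then lost, and the pNaKtide calls of Sema3c (−0.30) and Col15a1 (0.32) stayed. The median log2 fold change of the list was 0.24 with oxLDL and −0.57 when pNaKtide was added.

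Adipocyte genes were measured on the same libraries. Of 21, all tested, 1 was higher and 6 lower with oxLDL, and 12 were higher and 1 lower when pNaKtide was added to oxLDL, beside 18.1% and 18.0%, and 22.1% and 26.1%, of all genes. The triglyceride lipase gene Pnpla2 went from 2255 ± 311 CPM in Control to 1678 ± 179 in oxLDL (−0.43, edgeR adjusted p = 0.0131) and 2870 ± 422 CPM in oxLDL + pNaKtide (0.77, adjusted p = 2.33e-05). The fatty acid transporter gene Cd36 was the 1 called the other way in both, from 768 to 1109 and back to 668 CPM. With the length and GC trend out, 1 adipocyte gene was higher and 1 lower with oxLDL, beside 10.3% and 9.77% of all genes. When pNaKtide was added, 10 were then higher and 1 lower, beside 15.4% and 22.0%. Pnpla2 was then called only when pNaKtide was added (0.41, edgeR adjusted p = 7.91e-05) and not with oxLDL (−0.13, adjusted p = 0.234). Neither call of Cd36 was left, at −0.05 with oxLDL, where the sign turned, and an adjusted p of 0.976 when pNaKtide was added.

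Among genes that work with the members, the Dlk1 and Notch pathway had 19 of 21 genes tested. With oxLDL 4 were higher and 2 lower, where 36.0% of all genes were called in either direction, and with pNaKtide added 1 was higher and 10 lower, where 48.3% were called. The share of the list called with oxLDL was below that of all genes. Adam10, a sheddase that releases ectodomains from the cell surface, rose from 79.9 to 117 CPM with oxLDL (0.56, edgeR adjusted p = 0.0159; 0.15 and no longer called with the trend out, adjusted p = 0.190) and fell to 55.1 CPM with pNaKtide added (−1.09, adjusted p = 2.21e-05), with a value of −0.52 (adjusted p = 1.09e-05) once the trend was out. Itga5, a subunit of the fibronectin receptor, went from 257 to 171 and to 251 CPM (−0.59, adjusted p = 0.00865, and 0.55, adjusted p = 0.00276), and both calls stayed with the trend out (−0.37 and 0.31). At the Dlk1-Dio3 imprinted locus, 2 of 6 genes were tested and 0 called in either comparison by edgeR. The noncoding Meg3, expressed from the other parental copy, had 2 reads in the 30 libraries together, beside 42680 for Dlk1.

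Of 50 Wnt pathway genes 35 were tested. With oxLDL 10 were higher and 5 lower, and with pNaKtide added 4 were higher and 12 lower, in both cases near the 36.0% and 48.3% of all genes that were called. Ctnnb1, which encodes the beta-catenin that Wnt ligands stabilize, fell from 347 ± 5.46 to 242 ± 23.3 CPM when pNaKtide was added to oxLDL (−0.52 ± 0.08, edgeR adjusted p = 1.31e-05), and by 0.54 on the log2 scale with the trend out. The kinase gene Csnk1a1, part of the complex that marks beta-catenin for breakdown, rose with oxLDL (0.46, adjusted p = 0.0120), and the repressor gene Tcf7l1 fell (−0.37, adjusted p = 0.00957). With the trend out the call of Csnk1a1 stayed (0.15, adjusted p = 0.0873) and that of Tcf7l1 was lost (−0.07, adjusted p = 0.467). The kinase gene Gsk3a rose when pNaKtide was added (0.35, adjusted p = 0.000523) and had −0.08 with the trend out, where it was not called (adjusted p = 0.437). Sox9 partners and cartilage targets had 7 of 13 genes tested, with 0 called with oxLDL and 1 lower with pNaKtide added, the collagen gene Col11a1 (from 18.7 to 11.0 CPM, −0.77, adjusted p = 0.00389).

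Among relatives of the remaining members, 17 of 18 microfibril and elastic fibre genes were tested, the group of Mfap5. With oxLDL 1 was higher and 4 lower, and with pNaKtide added 5 were higher and 3 lower, again beside 36.0% and 48.3% of all genes called. Ltbp4, which binds latent TGF-beta, fell with oxLDL (−0.68, edgeR adjusted p = 0.00783). The cross-linking enzyme genes Lox and Loxl1 went opposite ways when pNaKtide was added, Lox from 233 to 137 CPM (−0.77, adjusted p = 1.45e-05) and Loxl1 from 250.1 to 404 CPM (0.69, adjusted p = 0.000571), and Lox had been higher with oxLDL (0.28, adjusted p = 0.0639). Of 13 neighbours of Ly6a in the Ly6 family 7 were tested, with 2 lower with oxLDL and 3 higher with pNaKtide added, led in both by Ly6e (−0.52, adjusted p = 0.0195, and 0.73, adjusted p = 0.000636). Of 14 genes of the gelsolin and DPP4 families 11 were tested, with 1 higher (Dpp8, 0.29, adjusted p = 0.0672) and 4 lower with oxLDL, and 2 higher and 2 lower with pNaKtide added. Flii, of the gelsolin family, fell with oxLDL (−0.37, adjusted p = 0.0138) and rose with pNaKtide added (0.38, adjusted p = 0.00462), whereas Dpp8 fell then (−0.34, adjusted p = 0.0205). With the length and GC trend out, the calls with oxLDL of Lox (−0.04, edgeR adjusted p = 0.839), Dpp8 (−0.01, adjusted p = 0.940), Ly6e (−0.25, adjusted p = 0.134) and Flii (−0.15, adjusted p = 0.135) were lost, the first 2 with a turn of sign. So were those with pNaKtide added of Flii (0.15, adjusted p = 0.103) and Dpp8 (0.11, adjusted p = 0.236), again with a turn of sign for Dpp8, while those of Lox, Loxl1 and Ly6e stayed.

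Markers of other cell types were read beside these. Of 8 mural and mesothelial markers 6 were tested, 2 were lower with oxLDL and 3 higher when pNaKtide was added. Their summed level was 24.1 to 35.9 CPM in Control, 21.6 to 24.3 CPM in oxLDL and 32.6 to 50.3 CPM in oxLDL + pNaKtide, and Des, the intermediate filament gene of muscle cells, went from 20.8 to 12.8 and to 27.4 CPM (−0.70, edgeR adjusted p = 0.0126, and 1.09, adjusted p = 7.62e-05). Their part in the changes of Dlk1, Gsn and Ly6a was not tested. Both calls of Des stayed with the trend out (−0.42 and 0.75). Of 8 macrophage markers 5 were tested and of 7 endothelial markers 2, and edgeR called 0 of either in both comparisons.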

How the data were processed

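RNA of 30 samples of 3T3-L1 cells was sequenced from a stranded mRNA kit. The submitters' processing notes name Trimmomatic 0.38, HISAT2 2.1.0, DESeq2 1.20.0 and the build GRCm38. Neither the gene annotation behind the counts nor how strand was handled is given in the sources used here. The authors deposited raw counts per gene, counts divided by size factors (a signal, not used for tests) and FPKM values. The extraction text of the labels names adipose tissue where the labels name 3T3 cells.

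Counts of genes with more than 14 reads summed over the 30 libraries (20139 of 54232) were TMM-scaled and fitted with edgeR 4.0.16 (R 4.3.3, robust quasi-likelihood, 6 groups, no block), with 8 group comparisons and 3 differences between changes. Adjusted p-values are Benjamini-Hochberg values over all tested genes of a comparison, two-sided, and a gene with a value below 0.1 is called. The biological coefficient of variation was 14.0%. A 95% interval is not given, and intervals span 2 SE on either side. CPM values are TMM-scaled, levels between genes are compared by the authors' FPKM, and coordinates and gene lengths come from GENCODE M21. Symbols were found for 54079 genes. Counting error alone is covered by read counts. Alternatives were DESeq2 1.42.0, limma-trend (limma 3.58.1) on log2(FPKM + 1) (mean FPKM 0.5 or more), other scalings, filters, thresholds and sample sets, the replicate block, offsets from a spline of 5 degrees of freedom over length and GC content, and the removal of libraries. On simulated counts for oxLDL against Control (19877 genes), edgeR called 95 of 100 genes changed by 1 and 44 of 100 changed by 0.5 on the log2 scale, along with 22 unchanged genes. Only 200 genes were changed there, all well above the read filter. Counts were drawn independently, with no GC trend and no libraries that stand apart. In the data 36.0% of genes were called in that comparison, so these rates need not hold for it. The chi-square per degree of freedom between libraries of a group was at least 1.28 over 60 pairs, so none was counted as a repeat. Some pairs lay close to counting noise: IS + pNaKtide 3 and 4 (1.28), pNaKtide 1 and 2 (1.35) and 4 and 5 (1.37), Control 2 and 4 (1.76) and IS 1 and 2 (1.94), where the other pNaKtide pairs had 13.4 to 17.2. The sources used here do not say whether such a pair shares a culture, and all were kept as separate libraries. If they do, the n of these groups is smaller and their p-values are too small.

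The members and the 12 lists were chosen with earlier results of these data known. All 10 members were tested in every comparison and those called are named, while values of the others are given in part. Of each list, the most significant gene per direction is named. It is taken among those called in oxLDL against Control and in oxLDL + pNaKtide against oxLDL. For members whose log2 CPM averages 1 or more, the genes of highest Pearson r are named.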

Additional observations from a re-analysis of the deposited data

Results flagged for a closer look

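Values far from the other 4 libraries of their group, by the share of the range that the gap to the nearest library takes (limit 0.71 for 5 libraries), were found in 11 of 56 pairs of a member and a group that had any spread. Chance gives about 1 in 20 for values measured on a continuous scale, which does not hold for the 5 pairs of Wnt10b and Dpp4, where almost no library of the group had a read. The well measured ones were Ly6a at 16.7 CPM in IS replicate 4 (the others 12.5 to 13.7 CPM) and Thy1 at 86.4 CPM in oxLDL + pNaKtide replicate 4 (61.4 to 68.1 CPM). Pi16, with 13 to 43 reads per library, had 3.69 CPM (35 reads) in Control replicate 4 (the others 2.74 to 2.92 CPM). The remaining ones rest on fewer reads still. Mfap5 stood high at 1.19 CPM in Control replicate 2, at 0.844 CPM in IS + pNaKtide replicate 4 and at 1.29 CPM in oxLDL replicate 5. Wnt10b had 0.164 CPM in Control replicate 1, 0.0706 CPM in oxLDL replicate 1 and 0.0905 CPM in pNaKtide replicate 3, each the only library of its group with a read. Dpp4 had 1.61 CPM (13 reads) in pNaKtide replicate 2 and 0.0761 CPM (1 read) in oxLDL replicate 5.

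The difference of the pNaKtide effect between conditions passed the threshold for 2 members between oxLDL and untreated cells, beside 24.6% of all genes, and for 2 between oxLDL and IS, beside 29.3%. Of these 4 differences, only that of Dlk1 between oxLDL and IS stayed past it with the length and GC trend out. For Dlk1 it was larger under oxLDL than in untreated cells by 0.95 on the log2 scale and larger under oxLDL than under IS by 1.08. For Pi16 it went from −0.35 in untreated cells to 0.39 under oxLDL, a difference of 0.74 between changes of opposite sign that were not called on their own, and for Ly6a it was larger under oxLDL than under IS by 0.52 (edgeR, all 4 differences with an adjusted p below 0.1, as given with the comparisons).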

How the results depend on the processing

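Counts of members called moved most in IS against Control (1 in the analysis above): 3 with DESeq2, with filterByExpr and with the replicate block (15.7%, 17.1% and 17.0% of all genes called), 2 with more than 14 counts in every library (21.0%), 6 without both libraries that stand apart (45.4%), and 0 with library size alone, with at least 1 count, at a threshold of 0.05 and with the compared groups only (0.00% to 12.6%). In that comparison Ly6a was called in 9 of 13 alternative settings, Gsn in 5 of 13 and Pi16 in 4 of 12. In oxLDL against Control (2) the count was 0 with the length and GC trend out (20.1% of all genes), 1 with the block and trend together (22.6%) and 3 without both libraries (47.6%), where Thy1 was added. In oxLDL + pNaKtide against oxLDL (4) it was 3 with library size alone, without Gsn, 5 with DESeq2 size factors, filterByExpr or the block, where Pi16 was added, 5 without both libraries, with Thy1, and 6 with limma-trend (Thy1 and Pi16) and with the compared groups only (Thy1 and Cd34), beside 46.4% to 68.6% of all genes. It stayed 4 with the trend out, where Cd34 took the place of Gsn. In oxLDL + pNaKtide against Control (1) it was 2 with DESeq2 (9.04%) and 0 with the compared groups only (0.0547%). In IS + pNaKtide against Control (0) it was 1 with DESeq2 (7.38%), with the block (6.64%) and with block and trend (4.70%), and 5 without both libraries (32.4%). For the oxLDL by pNaKtide difference (2) it was 1 with library size alone and with block and trend, 3 with DESeq2 and filterByExpr, where Gsn was added, and with the compared groups only, with Cd34 (21.7% to 38.7% of all genes), 0 with at least 1 count, at 0.05 and with the trend out, and 4 without both libraries (otherwise 11.3% to 26.2% of all genes, and 8049 of 20139 genes without both). For pNaKtide under oxLDL minus under IS (2) it was 1 with at least 1 count, at 0.05, with the trend out, with block and trend, and without both libraries (16.3% to 24.3%), and 3 with DESeq2, where Gsn was added (32.7%); with library size alone it stayed 2, with Sox9 in the place of Ly6a. Gsn in oxLDL + pNaKtide against oxLDL reversed to −0.0227 with the trend out and to −0.0206 with the replicate block and trend. The trend offsets remove by construction what genes of like length and GC content share; for the other settings the cause was not tested. Leaving out 1 library at a time gave 1 to 3 members in oxLDL against Control, 0 to 5 in IS against Control, 4 to 5 in oxLDL + pNaKtide against oxLDL, 1 in oxLDL + pNaKtide against Control, 0 to 4 in IS + pNaKtide against Control, 0 to 4 for the oxLDL by pNaKtide difference, 0 to 3 for oxLDL minus IS, and 0 elsewhere. Whether the replicate numbers carry a batch was not settled. Same-numbered libraries had deviations correlated from −0.66 to 0.74, and no comparison had every pair over 0.1. The replicate block changed the share of all genes called in IS against Control from 7.94% to 17.0%. Depth limits Cd34, Wnt10b, Dpp4 and Mfap5.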
